A study of Mus musculus with 3 samples.

Results

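The 10 genes of the core circadian clock and its first outputs were examined: Arntl, Clock, Per1, Per2, Per3, Cry1, Cry2, Nr1d1, Nr1d2 and Dbp. They were chosen by name, and all 10 were found by symbol among the 44548 genes of the table. The cells were integrin alpha6-positive, Sca1-negative cells sorted from the back skin of 56-day-old wild-type mice, at the second telogen, the resting stage of hair growth. RNA with poly(A) tails was sequenced in 3 libraries, which form 1 group with no treatment and no contrast, numbered as replicates 1 to 3. The labels speak of biological duplicates and do not say which libraries come from separate mice or pools, so the spread between them may be technical in part.

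The clock is a feedback loop of transcription that runs about once a day in most cells. ARNTL (also called BMAL1) pairs with CLOCK, binds E-box sequences and switches on the Per, Cry, Nr1d and Dbp genes. The PER and CRY proteins then block that pair, while the nuclear receptors NR1D1 and NR1D2 (REV-ERB alpha and beta) repress Arntl through ROR elements, and DBP carries the rhythm to further genes through D-boxes. In mouse tissues under a light-dark cycle, Nr1d1 and Dbp transcripts are known to peak in the light phase and Arntl in the opposite phase. In hair follicles the clock is known to bear on the timing of stem cell activation. The time of day of collection and the light schedule were not given in the sources used here, so each library is a single reading at an unknown phase.

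The libraries held 29283936 to 39198620 counts. Hair follicle stem cell markers were present, since 8 of the 8 listed had a TPM (counts per gene length, scaled to a common total) of at least 1 in all libraries, led by Krt15, as were the 5 basal keratinocyte markers, led by Krt5. The 5 suprabasal markers summed to 2121, 3617 and 5649 TPM in replicates 1, 2 and 3, so RNA of differentiated keratinocytes was also there. The 5 fibroblast markers summed to between 0.511 and 0.593 TPM, with Lum and Dpt at 0 counts, and the 4 endothelial markers to between 0.199 and 0.323 TPM, with Cdh5, Cldn5 and Emcn at 0 counts. The 5 immune markers summed to between 8.90 and 15.2 TPM, almost all of it Cd74, with Lyz2 at 0 counts, the 4 melanocyte markers to between 11.5 and 14.6 TPM, and the 4 sebaceous gland markers to between 132 and 182 TPM. Clock genes are active in many cell types, and the part of these cells in the values was not tested. In such sorted bulk samples, fewer expressing cells and less RNA per cell cannot be told apart.

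Promoter windows of 300 bases (250 before to 50 after each RefSeq start site, GRCm38.p6) were matched for 9 of the 10 genes (not Per2), as 13 windows. They are shown here because the clock loop works through short motifs in these regions. The E-box CACGTG, a palindrome, was in 2 of the 13 windows (Per1 and Cry1), against 7.15% of 32851 mouse promoter windows. The related letters CACGTT, searched on both strands, were in 3 of the 13 windows (Cry1, Cry2 and Nr1d1), against 4.68% of all windows. The D-box TTATGTAA, on both strands, was found only for Per3, in 1 of the 13 windows at 2 places, against 0.938% of all windows. The ROR element letters TAGGTCA or TGGGTCA, on both strands, were found only for Arntl, in 1 of the 13 windows, against 6.45% of all windows. The cAMP response element TGACGTCA was in none of the 13 windows, against 1.79% of all. The windows of Per1, Cry1, Per3, Nr1d1 and Arntl follow from 5′ to 3′ on the gene's strand, with each motif in capitals (that of Cry2 is not shown), for the 250 bases before the start site or, for Arntl, a stretch just after it.
Per1, chr11:69098699-69098948, plus strand: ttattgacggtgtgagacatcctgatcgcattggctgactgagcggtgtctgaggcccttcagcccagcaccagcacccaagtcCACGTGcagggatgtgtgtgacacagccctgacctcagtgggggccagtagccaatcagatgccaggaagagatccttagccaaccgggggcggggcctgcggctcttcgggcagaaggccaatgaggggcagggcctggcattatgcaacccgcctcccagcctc
Cry1, chr10:85185055-85185304, minus strand: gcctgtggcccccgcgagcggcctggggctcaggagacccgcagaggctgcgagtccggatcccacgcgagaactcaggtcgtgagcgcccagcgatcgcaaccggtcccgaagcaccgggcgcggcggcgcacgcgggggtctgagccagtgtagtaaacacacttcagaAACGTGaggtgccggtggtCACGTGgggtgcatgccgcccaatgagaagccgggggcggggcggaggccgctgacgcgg
Per3, chr4:151044666-151044915, minus strand: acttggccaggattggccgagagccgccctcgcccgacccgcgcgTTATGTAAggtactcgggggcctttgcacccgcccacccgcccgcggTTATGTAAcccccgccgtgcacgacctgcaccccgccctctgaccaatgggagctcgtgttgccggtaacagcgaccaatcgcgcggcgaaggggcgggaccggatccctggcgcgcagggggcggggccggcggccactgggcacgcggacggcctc
Nr1d1, chr11:98775378-98775627, minus strand: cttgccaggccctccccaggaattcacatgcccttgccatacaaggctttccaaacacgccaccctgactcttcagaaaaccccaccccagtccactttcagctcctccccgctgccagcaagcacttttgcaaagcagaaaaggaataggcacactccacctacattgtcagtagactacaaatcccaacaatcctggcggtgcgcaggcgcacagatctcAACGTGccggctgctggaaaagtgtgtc
Arntl, chr7:113207530-113207558, plus strand: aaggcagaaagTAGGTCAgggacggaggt
The Per1 E-box begins 166 bases before the start site of its window. That site, at 69098949, lies inside the annotated gene, which begins at 69095217, so it is not the annotated 5′ end. The Cry1 E-box begins 60 bases before its start site. The Per3 D-boxes begin 205 and 158 bases before the start site. The Nr1d1 motif begins 28 bases before, and the Arntl element begins 30 bases after the start site, in the transcribed part. A match is a description of the letters and says nothing of binding in these cells.

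All 10 genes had a TPM of at least 1 in all 3 libraries, as did 12048 of all 44548 genes. Their levels spanned from 2.69 TPM for Per3 to 276 TPM for Nr1d1, with a median of 24.6 TPM. The repressor receptors, Per1 and the output gene Dbp stood at the top, and Cry1, Per2 and Per3 at the bottom.

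The activators stood at moderate levels. Arntl (ENSMUSG00000055116, GRCm38 chromosome 7, 113207465 to 113314126, plus strand) had 17.6, 11.8 and 9.76 TPM in replicates 1 to 3 (1426, 1218 and 1133 counts), averaging 13.1 ± 4.05 TPM (SD, n = 3). Clock (ENSMUSG00000029238, chromosome 5, 76209868 to 76304792, minus strand) had 17.1, 10.6 and 10.2 TPM (2532, 1990 and 2152 counts), averaging 12.6 ± 3.90 TPM (SD, n = 3). Both were highest in replicate 1, and the partners stood within 0.15 of each other on the log2 scale in each library. Their mean lay near the middle of the genes averaging at least 1 TPM, at the percentiles of 47.3 and 46.4.

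The period genes, which encode the PER repressors, differed widely in level. Per1 (ENSMUSG00000020893, chromosome 11, 69095217 to 69109960, plus strand) had 139, 129.8 and 152 TPM (8450, 10006 and 13224 counts), averaging 140.4 ± 11.3 TPM (SD, n = 3). Per2 (ENSMUSG00000055866, chromosome 1, 91415982 to 91459324, minus strand) had 8.11, 3.11 and 4.42 TPM (512, 249 and 399 counts), averaging 5.21 ± 2.60 TPM (SD, n = 3). Per3 (ENSMUSG00000028957, chromosome 4, 151003652 to 151044665, minus strand) had 5.16, 1.51 and 1.39 TPM (534, 199 and 206 counts), averaging 2.69 ± 2.14 TPM (SD, n = 3). Per1 was thus high and even over the libraries, while Per2 and Per3 were low and highest in replicate 1. Per1 is known to respond also to glucocorticoids and to cell handling, besides the clock.

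The cryptochrome genes, which encode the CRY repressors, differed little between libraries. Cry1 (ENSMUSG00000020038, chromosome 10, 85131700 to 85185064, minus strand) had 6.17, 5.01 and 6.35 TPM (222, 229 and 327 counts), averaging 5.84 ± 0.727 TPM (SD, n = 3). Cry2 (ENSMUSG00000068742, chromosome 2, 92403646 to 92434043, minus strand) had 36.1, 37.3 and 35.0 TPM (2460, 3228 and 3415 counts), averaging 36.1 ± 1.13 TPM (SD, n = 3). For both genes the 95% exact Poisson intervals of all library pairs overlapped, which was so for no other clock gene. For Cry1 the overlap of replicates 2 and 3 was narrow, with an upper bound of 5.70 and a lower bound of 5.68 TPM, and overlap does not show that the levels were equal. These intervals cover counting error only.

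The REV-ERB receptors and Dbp were high. Nr1d1 (ENSMUSG00000020889, chromosome 11, 98767932 to 98775333, minus strand) had 171, 352 and 305 TPM (5674, 14849 and 14463 counts), averaging 276 ± 94.0 TPM (SD, n = 3). It was lowest in replicate 1, and its mean lay at the percentile of 96.9 among genes averaging at least 1 TPM. Nr1d2 (ENSMUSG00000021775, chromosome 14, 18204054 to 18239127, minus strand) had 103, 59.2 and 59.6 TPM (5562, 4053 and 4601 counts), averaging 74.0 ± 25.3 TPM (SD, n = 3). Dbp (ENSMUSG00000059824, chromosome 7, 45705088 to 45710203, plus strand) had 52.1, 94.3 and 67.2 TPM (1682, 3863 and 3102 counts), averaging 71.2 ± 21.3 TPM (SD, n = 3). Nr1d1 and Dbp were thus lowest in replicate 1, while Nr1d2, the paralog of Nr1d1, was highest there.

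**Figure D1:**
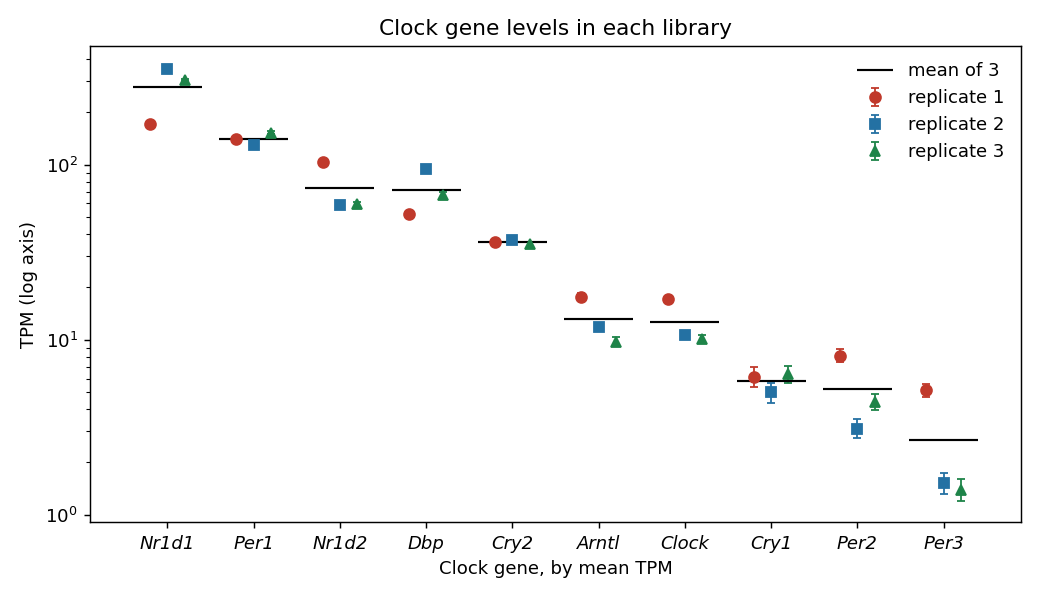
Level of the 10 clock genes in TPM (log axis), ordered by mean. Each point is 1 library with its 95% exact Poisson interval, and the bar is the mean of the 3. Nr1d1 and Dbp are lowest in replicate 1, while Per3, Per2, Nr1d2, Clock and Arntl are highest there.

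Overlapping genes limit a few of these values, because the strand setting of the counting was not given in the sources used here. In GENCODE M21, 263 exonic bases of Nr1d1 (8.55% of its exons) also lie in exons of Thra, the thyroid hormone receptor alpha gene on the opposite strand, which had 104, 128 and 131 TPM. For Dbp, 539 exonic bases (18.0%) lie in exons of Sphk2, a sphingosine kinase gene on the opposite strand with 35.9, 51.4 and 49.4 TPM. Cry2 shares 295 exonic bases (4.67%) with the opposite-strand transcript D930015M05Rik, which had 2.89 ± 1.28 TPM (SD, n = 3). Per3 lies within the span of Camta1 on the same strand and shares 0 exonic bases with it, and Camta1 had 16.1, 13.7 and 12.1 TPM. Thra and Sphk2 were, like Nr1d1 and Dbp, lowest in replicate 1, and their part in the Nr1d1 and Dbp values was not tested.

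The order of the levels was then read over neighbours, on the log2(TPM + 1) scale. Sorted by mean, the order was Nr1d1, Per1, Nr1d2, Dbp, Cry2, Arntl, Clock, Cry1, Per2 and Per3. Of the 9 neighbouring pairs, 6 kept that order in 3 of 3 libraries. The order was set by the means of these same libraries, so this is a description with no test. The other 3 pairs had mixed signs and a mean difference below its SD. Nr1d2 minus Dbp was 0.97, -0.66 and -0.17 in the 3 libraries in turn, on average 0.05 ± 0.84. Arntl minus Clock was 0.04, 0.15 and -0.05, and Cry1 minus Per2 was -0.35, 0.55 and 0.44. These 3 pairs cannot be ordered on these libraries.

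Ratios within a library hardly depend on library scaling, and 4 were compared. Dbp, an output of the activating arm, exceeded Arntl, which that arm's receptors repress, by a log2 ratio of 1.52, 2.89 and 2.66 in the 3 libraries in turn, on average 2.36 ± 0.74 (SD, n = 3). Per1 exceeded Per2 by 3.94, 4.99 and 4.82, a mean of 4.59 ± 0.56. Cry1 minus Cry2 was -2.37, -2.67 and -2.29, a mean of -2.45 ± 0.20, so Cry2 was the higher cryptochrome. Nr1d1 exceeded Nr1d2 by 0.72, 2.55 and 2.33, a mean of 1.87 ± 1.00. All 4 ratios had 1 sign in 3 of 3 libraries (two-sided exact sign-flip p = 0.25 each, the smallest that 3 libraries allow, adjusted over the 4 ratios 0.25). For Dbp to Arntl, Per1 to Per2 and Nr1d1 to Nr1d2, replicate 1 had the smallest ratio and replicates 2 and 3 lay close together. The labels do not pair any of these ratios with a collection time, and none was assigned one.

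**Figure D2:**
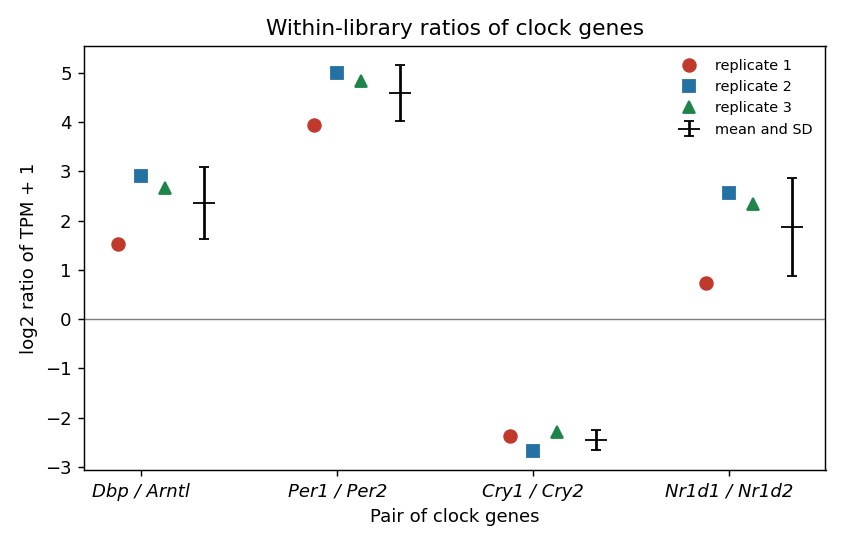
Difference of log2(TPM + 1) between pairs of clock genes within each library, with the mean and SD of the 3 beside the points. Dbp to Arntl and Nr1d1 to Nr1d2 are lowest in replicate 1, at 1.52 and 0.72, while Cry1 to Cry2 stays between -2.67 and -2.29.

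The differences between libraries lay mainly between replicate 1 and the others. On the TPM scale replicate 1 was above both others for 5 clock genes (Arntl, Clock, Per2, Per3 and Nr1d2), below both for 2 (Nr1d1 and Dbp) and between for 3 (Per1, Cry1 and Cry2). Of all 13663 genes averaging at least 1 TPM, 59.6% were highest in replicate 1, so the 5 of 10 did not exceed the background. Replicate 1 minus the mean of the others was 1.33 for Per3, 0.95 for Per2, 0.79 for Nr1d2, 0.67 for Clock, 0.66 for Arntl, -0.60 for Dbp and -0.93 for Nr1d1, on the log2(TPM + 1) scale. The median over 13663 genes averaging at least 1 TPM was 0.24, so the lower values of Nr1d1 and Dbp went against the general shift of that library. With scaling by TMM the median of all genes was 0.01, and these 7 genes kept their side, while Per1 and Cry2 then also lay below both others, with differences of -0.27 and -0.25 from their mean. Scaling to the upper quartile placed all 10 genes on the same sides as TMM.

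On the TPM scale the median log2 range over the libraries was 0.79 for the 10 clock genes and 0.54 for all 13663 genes. With TMM scaling these medians lay close together, at 0.54 and 0.52. Without replicate 1 the median range of the clock genes on the TPM scale was 0.22, so that library set most of the spread. A gene was counted as standing apart when 1 library lay more than 1 log2 unit above or below both others. Of the 10 clock genes only Per3 did so, high in replicate 1, where 10.6% of all genes stood apart upward and 2.26% downward. Over any library and direction the share of all genes was 16.4%, so 1 in 10 clock genes is near the background. With TMM or upper-quartile scaling Nr1d1 also passed, low in replicate 1, which made 2. The share of all genes was 13.9% with TMM and 14.4% with upper-quartile scaling.

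**Figure D3:**
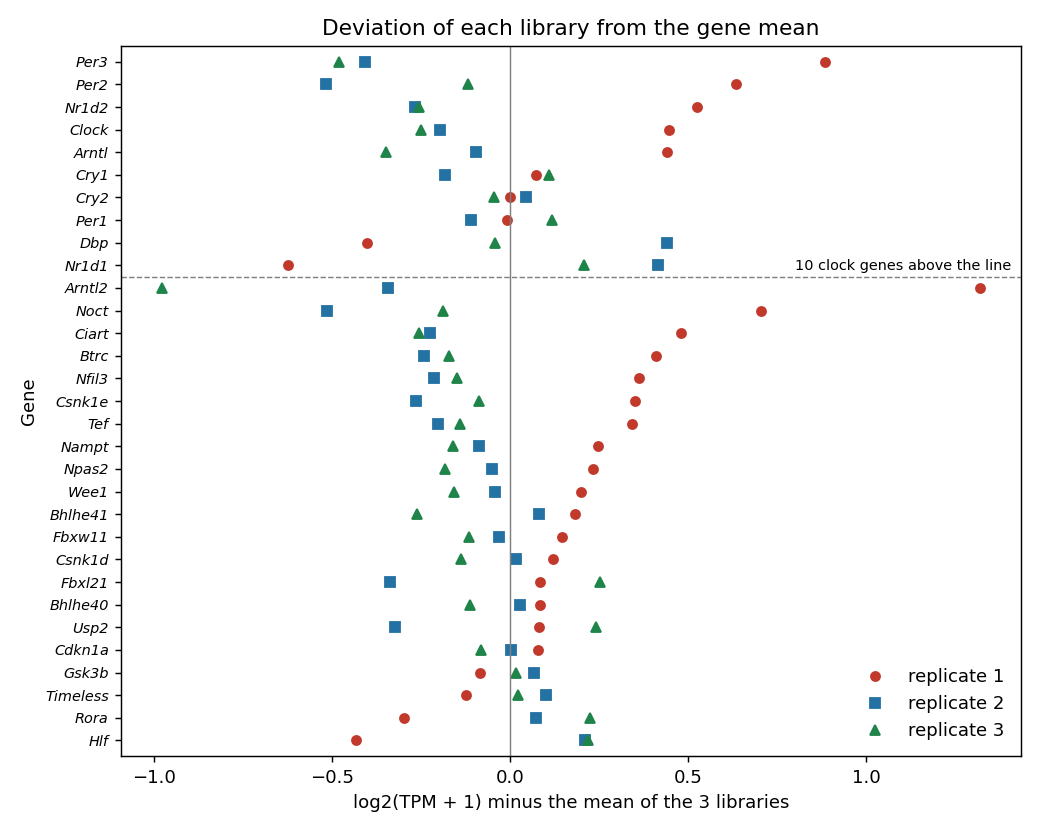
Deviation of each library from the gene's mean on the log2(TPM + 1) scale, for the 10 clock genes (above the dashed line) and the 21 other clock pathway genes averaging at least 1 TPM. Replicate 1 lies right of the others for most genes and left of them for Nr1d1, Dbp, Hlf, Rora, Timeless and Gsk3b.

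The wider pathway was read from a list of 22 further genes, of which 20 had a TPM of at least 1 in all libraries. Npas2, which can stand in for CLOCK, had 16.7, 13.5 and 12.3 TPM, close to Clock itself. Arntl2, the paralog of Arntl, had 20.1, 5.66 and 3.29 TPM, from 1231, 441 and 289 counts, and stood apart in replicate 1. Arntl2 was thus above Arntl in replicate 1 and below it in the others.

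The ROR receptors compete with the REV-ERB receptors at the same elements and activate Arntl. Rora had 8.57, 11.4 and 12.7 TPM and was lowest in replicate 1. Rorb had 0, 10 and 2 counts, where the count of 0 allows up to 0.0251 TPM.

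Among output factors, the Dbp relatives Tef and Hlf bind the same D-boxes, and Nfil3 represses there. Tef had 164, 112 and 117 TPM, Nfil3 144, 96.4 and 101 TPM, and Hlf 3.26, 5.65 and 5.70 TPM. Tef and Nfil3 were therefore highest in replicate 1, opposite to Dbp, and Hlf was lowest there, like Dbp. Bhlhe40 and Bhlhe41, repressors that bind E-boxes, had 29.7 ± 2.13 and 4.04 ± 0.780 TPM, and Ciart, a repressor of the ARNTL and CLOCK pair, had 6.61 ± 2.34 TPM (SD, n = 3).

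The 7 listed genes that act on the lifetime of clock proteins were all detected. The casein kinases Csnk1d and Csnk1e, which phosphorylate PER, had 75.2 ± 6.85 and 21.4 ± 5.06 TPM (SD, n = 3). Fbxl21, a ubiquitin ligase subunit, had 1.47 ± 0.498 TPM. Btrc and Fbxw11, the subunits that act on PER, had 13.7 ± 3.86 and 42.3 ± 4.04 TPM, the kinase gene Gsk3b 18.2 ± 1.03 TPM and the deubiquitinase gene Usp2 17.9 ± 3.63 TPM. Of genes known to be driven by the clock or linked to it, the cell cycle inhibitor Cdkn1a had 185 ± 10.3 TPM, the NAD synthesis gene Nampt 38.6 ± 6.19 TPM, the mitotic kinase gene Wee1 23.5 ± 3.14 TPM, Noct (listed as Ccrn4l) 18.2 ± 8.88 TPM and Timeless 2.38 ± 0.264 TPM. Of the 22 genes 15 were highest in replicate 1, where 59.6% of all 13663 genes were highest. Arntl2, 1 of the 22, stood apart upward there, against 10.6% of all genes.

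Stress and hormone genes also differed between the libraries. Of 12 dissociation response genes, 11 were highest in replicate 1, where 59.6% of all genes were highest, and their sum was 27269, 17484 and 12535 TPM in replicates 1 to 3. Of the AP-1 factor genes, Fos had 10120, 5406 and 4269 TPM, Jun 3678, 1944 and 1179 TPM, and Fosb, the exception, 2107, 2538 and 1513 TPM. The heat shock gene Hspa1a had 164, 82.8 and 61.4 TPM. The 6 glucocorticoid response genes summed to 884, 423 and 580.3 TPM, in another order of the libraries. Fkbp5 had 42.7, 8.59 and 53.7 TPM and Tsc22d3 had 355, 47.7 and 124 TPM, both lowest in replicate 2, while Sgk1 had 206, 171 and 164 TPM and the receptor gene Nr3c1 118, 106 and 84.7 TPM. Per1 was also lowest in replicate 2, where 4 of the 6 glucocorticoid response genes were lowest, the other 2 being lowest in replicate 3. It was highest in replicate 3, where all 12 dissociation response genes were lowest. The log2 range of Per1 was 0.23 against 2.51 for Fkbp5 and 2.87 for Tsc22d3. The sums of both lists were highest in replicate 1, the library in which the clock genes differed most. The sums of keratinocyte markers were lowest in the same library. All 5 basal markers were lowest in replicate 1, with sums of 19693, 28990 and 25677 TPM in replicates 1 to 3, and the 8 stem cell markers, 5 of them lowest there, summed to 21278, 27593 and 26106 TPM. The suprabasal sum was likewise lowest there, but of its 5 markers 3 were lowest in replicate 1 and 2 in replicate 2. The cornified envelope gene Lor, with the largest log2 range of the 5, had 164, 1112 and 1476 TPM. The part of the stress, hormone and marker genes in the clock gene differences was not tested.

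The authors' deposited table also gives a log2 fold change and adjusted p-value per gene, taken from column names to compare these libraries with bulge libraries that are not analysed here. A positive value means higher in the libraries studied here, because all 2552 genes with 0 counts in them and a fold change had a negative one. Of the 10 clock genes, 4 had in the authors' deposited table an adjusted p-value under 0.05, where 55.5% of 20264 genes did. Of these, 1 was higher (23.6% of all genes were) and 3 were lower (31.9% of all genes), so the count for the clock genes did not exceed the background. The single higher gene was Dbp, with a log2 fold change of 2.61 and an adjusted p-value of 3.59e-14 in the authors' deposited table. The lower ones in the authors' deposited table were Clock at -1.91 (adjusted p-value 8.47e-21), Per3 at -1.06 (0.0215) and Arntl at -0.57 (0.0212).

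The remaining 6 genes lay close to 0 in the authors' deposited table. Their log2 fold changes were 0.13 for Per1, 0.03 for Nr1d1, -0.05 for Nr1d2, -0.06 for Cry1, -0.17 for Per2 and -0.33 for Cry2, with adjusted p-values from 0.165 for Cry2 to 0.935 for Nr1d1. Dbp and Nr1d1 are both targets of the ARNTL and CLOCK pair, and the authors' deposited table held them far apart, at 2.61 and 0.03. Sphk2, which overlaps Dbp, had a log2 fold change of 1.54 and Thra, which overlaps Nr1d1, 1.40 in the authors' deposited table. The median over the 10 clock genes was -0.11 and over all 20264 genes -0.36. Of the 22 further pathway genes, 5 were higher and 10 lower past the threshold in the authors' deposited table, among them Tef at 1.01 and Nfil3 at 1.08, and Gsk3b at -2.46, Rora at -2.18 and Fbxl21 at -1.93. Over all genes 23.6% were higher and 31.9% lower, so the higher count lay at the background and the lower count above it. The difference in the lower count was not tested.

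For the 10 clock genes, these fold changes moved with gene length. Clock has the longest deposited length, 13727 bases, and the lowest fold change of the 10, and Dbp the shortest, 2993 bases, and the highest. Across the 10 genes Spearman's rho of length and fold change in the authors' deposited table was -0.92 (n = 10 genes that share the same libraries). Across 13505 genes averaging at least 1 TPM it was -0.385, and across all 20264 genes it was 0.04. All genes were also split into length classes of equal gene number (10 classes, class 1 the shortest). The median fold change in the authors' deposited table was low in the shortest classes, at -2.44 in class 1 and -0.85 in class 2. It was 0.37 in class 3 and fell from there on. Class 5 (2472 to 3086 bases) had 0.26 and class 8 (4720 to 5983 bases) -0.19. Class 9 (5984 to 8225 bases) had -0.49 and class 10 (from 8225 bases) -1.10. Arntl at -0.57 and Per3 at -1.06 thus stood next to the medians of their own length classes, -0.49 and -1.10. Of the 10 clock genes 8 lay between the quartiles of their length class, and only Dbp, above, and Clock, below, lay outside. The part of gene length in the fold changes was not tested.

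**Figure D4:**
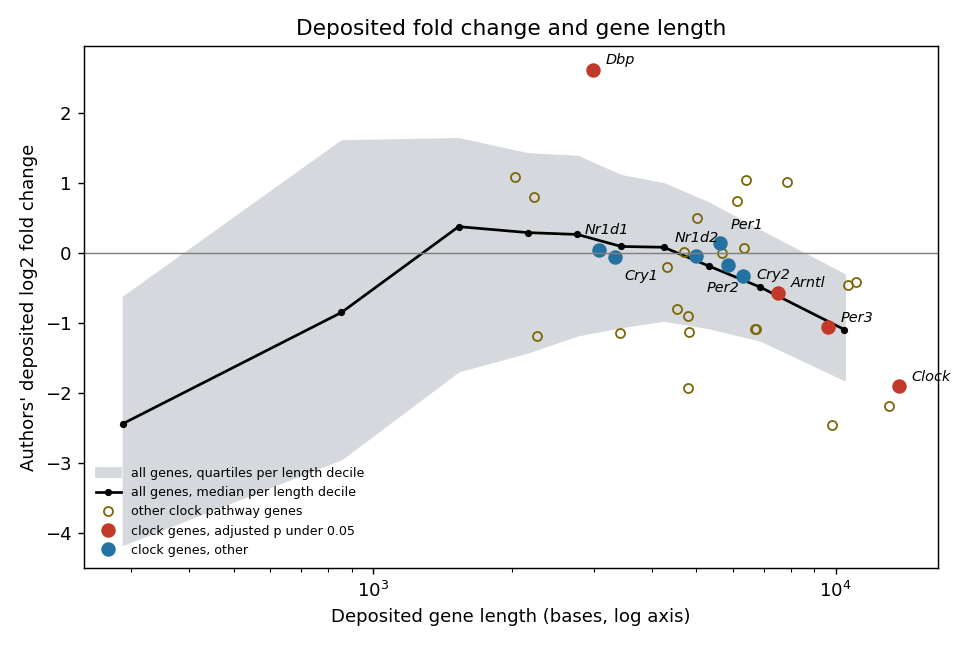
Log2 fold change from the authors' deposited table against deposited gene length (log axis) for the 10 clock genes, 22 further pathway genes, and all genes as the median and quartiles per length class. The clock genes other than Dbp at 2.61 and Clock at -1.91 lie within the grey quartile band of their length class.

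The histone mark H3K27me3 is associated with gene repression, and the table gives a value per gene whose unit was not stated. It was 0 for all 10 clock genes and for all 22 further pathway genes. Most genes had 0 too, since 8.06% of 44548 genes had a value above 0.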

How the data were processed

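RNA sequencing of 3 libraries of 1 group was used, with no contrast between groups of its own. Per the file headers, the authors deposited read counts per gene as whole numbers, TPM values, a gene length, a log2 fold change, its adjusted p-value, an H3K27me3 number and a score made by the authors, which was not used. Per the submitters' processing notes, FastQC, SAMtools, TopHat2, DESeq2, DESeq, mm10 and GRCm38 were named without roles; the counting tool, strand setting and test were not given in the sources used here. Another 6 columns of per-sample values, with names of bulge libraries, were not used. The deposited length equals the exon union in GENCODE M21 for 9 of the 10 clock genes and is 5001 against 5409 bases for Nr1d2.

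The clock genes, gene lists and tests were chosen with earlier results of these data known. Of 44625 entries, 1 per symbol was kept (the highest mean TPM). Some pathway genes are not reported here and were left out of the pathway counts. Named genes were all other clock and pathway genes, the highest and most variable of the stress and hormone lists, and up to 2 per marker list. Markers with 0 counts in all libraries were named as well. Values were compared as log2(TPM + 1), which understates changes of low genes, in Python 3.11.15, with two-sided exact sign-flip tests over libraries. TMM factors as an alternative scaling came from edgeR 4.0.16, computed on the deposited counts of 13519 genes. The script that counts genes standing apart was tested on simulated data. Intervals are 95% exact Poisson intervals of the counts, and a count of 0 allows up to 3 counts. Alternatives were another pseudocount, CPM, TMM, upper-quartile scaling, no mitochondrial genes, no filter, stricter thresholds and leaving out each library. Coordinates come from GENCODE M21 (GRCm38) by identifier and promoters from RefSeq (GRCm38.p6).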

Additional observations from a re-analysis of the deposited data

How the results depend on the processing

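All 4 ratios kept their sign in 3 libraries with a pseudocount of 0.1 and with CPM in place of TPM. By CPM, Dbp to Arntl was 1.10 and Nr1d1 to Nr1d2 1.18. Leaving out each replicate in turn gave 2.09 to 2.78 for Dbp to Arntl, 4.38 to 4.91 for Per1 to Per2, -2.52 to -2.33 for Cry1 to Cry2 and 1.53 to 2.44 for Nr1d1 to Nr1d2. The median log2 range of the clock genes went from 0.22 (without replicate 1) to 0.72 when 1 replicate was left out, and was 0.54 with TMM, where that of all genes was 0.52. The number of clock genes standing apart was 2 with TMM (13.9% of all genes) and 2 with upper-quartile scaling (14.4%), against 1 (16.4%). Those past the deposited threshold numbered 2 (Clock and Dbp) at an adjusted p-value under 0.01 and 3 with a log2 fold change of at least 1 in size, against 4. The median level was 27.8 TPM with mitochondrial genes left out of the total, against 24.6. The number of neighbouring pairs in 1 order was 4 by CPM, against 6. No paired analysis was possible because the samples form 1 group. Counting error was small for the high genes and wider for Cry1, with 222 to 327 counts.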

Other observations

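The length classes also differed in how many genes passed the threshold in the authors' deposited table. Of 10 classes of equal gene number, the class with the longest models had 6.27% higher and 61.7% lower genes. The class with the shortest models had 6.76% higher and 44.7% lower genes. In class 5, which holds Dbp and Nr1d1, 34.0% were higher and 21.9% lower.

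Replicate 1 minus the mean of the others was also set beside gene length. Across the 10 clock genes Spearman's rho was 0.65 (n = 10 genes of the same libraries), and across 13663 genes averaging at least 1 TPM it was 0.06. On the TPM scale the median difference per length class lay between 0.15 and 0.36 over all genes, and Dbp had -0.60 and Nr1d1 -0.93. The median over all genes was 0.24 on that scale and 0.01 with TMM. The part of gene length in these differences was not tested.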
